A study of Mus musculus with 8 samples.

Results

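Otx2, Pou3f1 and Foxd3 encode 3 transcription factors of the primed epiblast, and they were followed here through the peak lists of a chromatin immunoprecipitation and sequencing (ChIP-seq) study of differentiating mouse embryonic stem cells. The genes were taken by name from a RefSeq table of 21887 protein-coding genes, and every peak lying in one of them or within 50 kb of it was collected. This gave 30 peaks in all: 17 of 17368 in the day 2 list of acetylated histone H3 (H3ac), 7 of 12945 in the day 4 list, 0 of 5553 in the day 6 list and 6 of 5286 in the day 2 list of the histone deacetylase HDAC1. The cells were of the 129/Ola strain and were grown on gelatin in N2B27, a medium without serum. H3ac was precipitated on days 2, 4 and 6, and HDAC1 on day 2 with an anti-FLAG antibody, the protein carrying a 3 FLAG tag. For each of the 4 immunoprecipitations there was a single ChIP library with its own input, so no difference between days or targets could be set against replicate error and no test was made. Each peak list belongs to 1 ChIP library and gives no read depth. The labels do not say whether the HDAC1 library came from the same cells as the day 2 H3ac library or from a separate tagged line, and the lists hold no expression values by which the identity of the cells could be checked.

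As background, embryonic stem cells leaving the naive state pass through a primed state like that of the epiblast after implantation before they take up a germ layer fate. Otx2, a homeodomain factor, is known for helping Oct4 move to new enhancers in that passage and later for patterning the forebrain and midbrain. Pou3f1, also called Oct6, is a POU domain factor of the epiblast and of early neural cells, and Foxd3 is a forkhead factor of pluripotent cells and, later, of neural crest. Acetylated H3 marks active promoters and enhancers, and HDAC1 removes acetyl groups as the catalytic part of several corepressor complexes.

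The sequences before 3 start sites are shown because day 2 peaks reached some of these sites and not others. They are the 250 bases before the start in RefSeq's GRCm38.p6 table, which has the coordinates of mm10, printed 5′ to 3′ along the gene's own strand. Capitals mark matches, on either strand, to any of 5 motifs searched: ATGCAAAT (octamer), TAATCC (OTX core), TGTTTAC (forkhead), ACAAAG (SOX) and CACGTG (E-box). The outer Otx2 sequence (chr14:48667645-48667894, minus strand) lies next to the outermost start of the gene, the inner one (chr14:48665110-48665359, minus strand) precedes a start inside the gene, and the Foxd3 sequence is chr4:99656049-99656298, plus strand. Otx2 had 4 entries in that table and Foxd3 had 1. Pou3f1 was not matched.
Otx2 outer start: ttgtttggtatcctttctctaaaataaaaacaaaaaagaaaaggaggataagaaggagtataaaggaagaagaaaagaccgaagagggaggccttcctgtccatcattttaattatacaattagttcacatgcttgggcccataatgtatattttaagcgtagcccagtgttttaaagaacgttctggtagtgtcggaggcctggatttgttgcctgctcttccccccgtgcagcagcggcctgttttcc
Otx2 inner start: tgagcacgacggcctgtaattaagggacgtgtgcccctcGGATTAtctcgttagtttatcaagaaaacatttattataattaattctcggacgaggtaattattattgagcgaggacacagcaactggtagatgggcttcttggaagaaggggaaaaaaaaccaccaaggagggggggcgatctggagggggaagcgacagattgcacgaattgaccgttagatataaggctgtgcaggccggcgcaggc
Foxd3 start: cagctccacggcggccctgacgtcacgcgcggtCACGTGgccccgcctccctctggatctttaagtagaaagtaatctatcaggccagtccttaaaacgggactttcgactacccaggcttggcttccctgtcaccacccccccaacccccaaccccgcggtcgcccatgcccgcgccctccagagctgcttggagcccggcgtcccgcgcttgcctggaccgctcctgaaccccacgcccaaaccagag

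The inner Otx2 sequence was covered by a day 2 H3ac peak over all of its 250 bases, the outer one over 0 and the Foxd3 sequence over the last 8. The inner Otx2 sequence held the letters GGATTA, the OTX core read on the other strand, from chr14:48665315-48665320. The OTX core occurs in 6.25% of 32851 promoter sequences of this length. The Foxd3 sequence held the E-box CACGTG at chr4:99656082-99656087, a motif in 6.02% of promoters. No match to the octamer, forkhead or SOX letters was found in these windows; 1.6%, 3.17% and 16.5% of all promoters hold them. A match is a description of letters and not a site of binding. The sequences also differed in base composition. The Foxd3 sequence held 21 CpG dinucleotides, a number that 16.3% of promoters reach, the inner Otx2 sequence held 14 (29.4%), and the outer Otx2 sequence held 6, which is the median over all promoters. The Otx2 sequences not shown, before the starts at 48667508 and 48662734, held 8 and 9. Day 2 H3ac peaks covered 0 and 13 of their bases.

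Otx2 carried a run of H3ac peaks on day 2, from below its lower end to above its upper end, and had none on days 4 and 6. The gene (gene ID 18424) lies on chromosome 14 from 48656781 to 48667644 in mm10, on the minus strand. On day 2 it held 4 peaks, with 1 more below its lower end and 2 above its upper end, 7 in all, where the median protein-coding gene had 2 in the same window and 10.3% of genes had 7 or more. On day 2, 68.3% of all protein-coding genes had a peak in this window, and the shares were 65.6% and 47.4% on days 4 and 6. Of the 7 peaks, 6 stood within a stretch of 19.1 kb, from 48655210 to 48674265.

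None of the Otx2 peaks was among the strongest of its list. The highest score was 109.28, at chr14:48666648-48667266, 619 bp wide and ranked 5975 of 17368. It ended 377 bp short of the outermost start site. The score is the authors' own value for each peak, of unstated scale, and serves here only to rank peaks within a list. The widest peak, 1038 bp at chr14:48661710-48662747 with score 99.65, reached the innermost of the 4 start sites, and the peak at chr14:48665006-48665755 (score 88.19, 750 bp) contained the next one. These peaks therefore lay at 2 internal start sites, while the outer start sites lay 241 and 377 bp outside the nearest peak. The peak at chr14:48659671-48660042 (66.53) lay inside the gene, 2889 bp from its lower end. Below the gene, 801 bp past its end, lay a peak at chr14:48655210-48655979 (82.75). On the other side, the peak at chr14:48673607-48674265 (100.65) lay 5962 bp from Otx2 inside Otx2os1, a long noncoding RNA gene that begins 1643 bp from Otx2. The last, at chr14:48707975-48708513, lay 40330 bp away inside Otx2os1 and the noncoding gene Gm38660, and its score of 51.90 was close to the list minimum of 50. In all, 5 of the 7 scored at or above the list median of 80.21. When each list was limited to its 5286 highest-scoring peaks, the length of the shortest list, Otx2 had 0 H3ac peaks on every day, so its difference between days rests on peaks of middle and low rank.

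**Figure D1:**
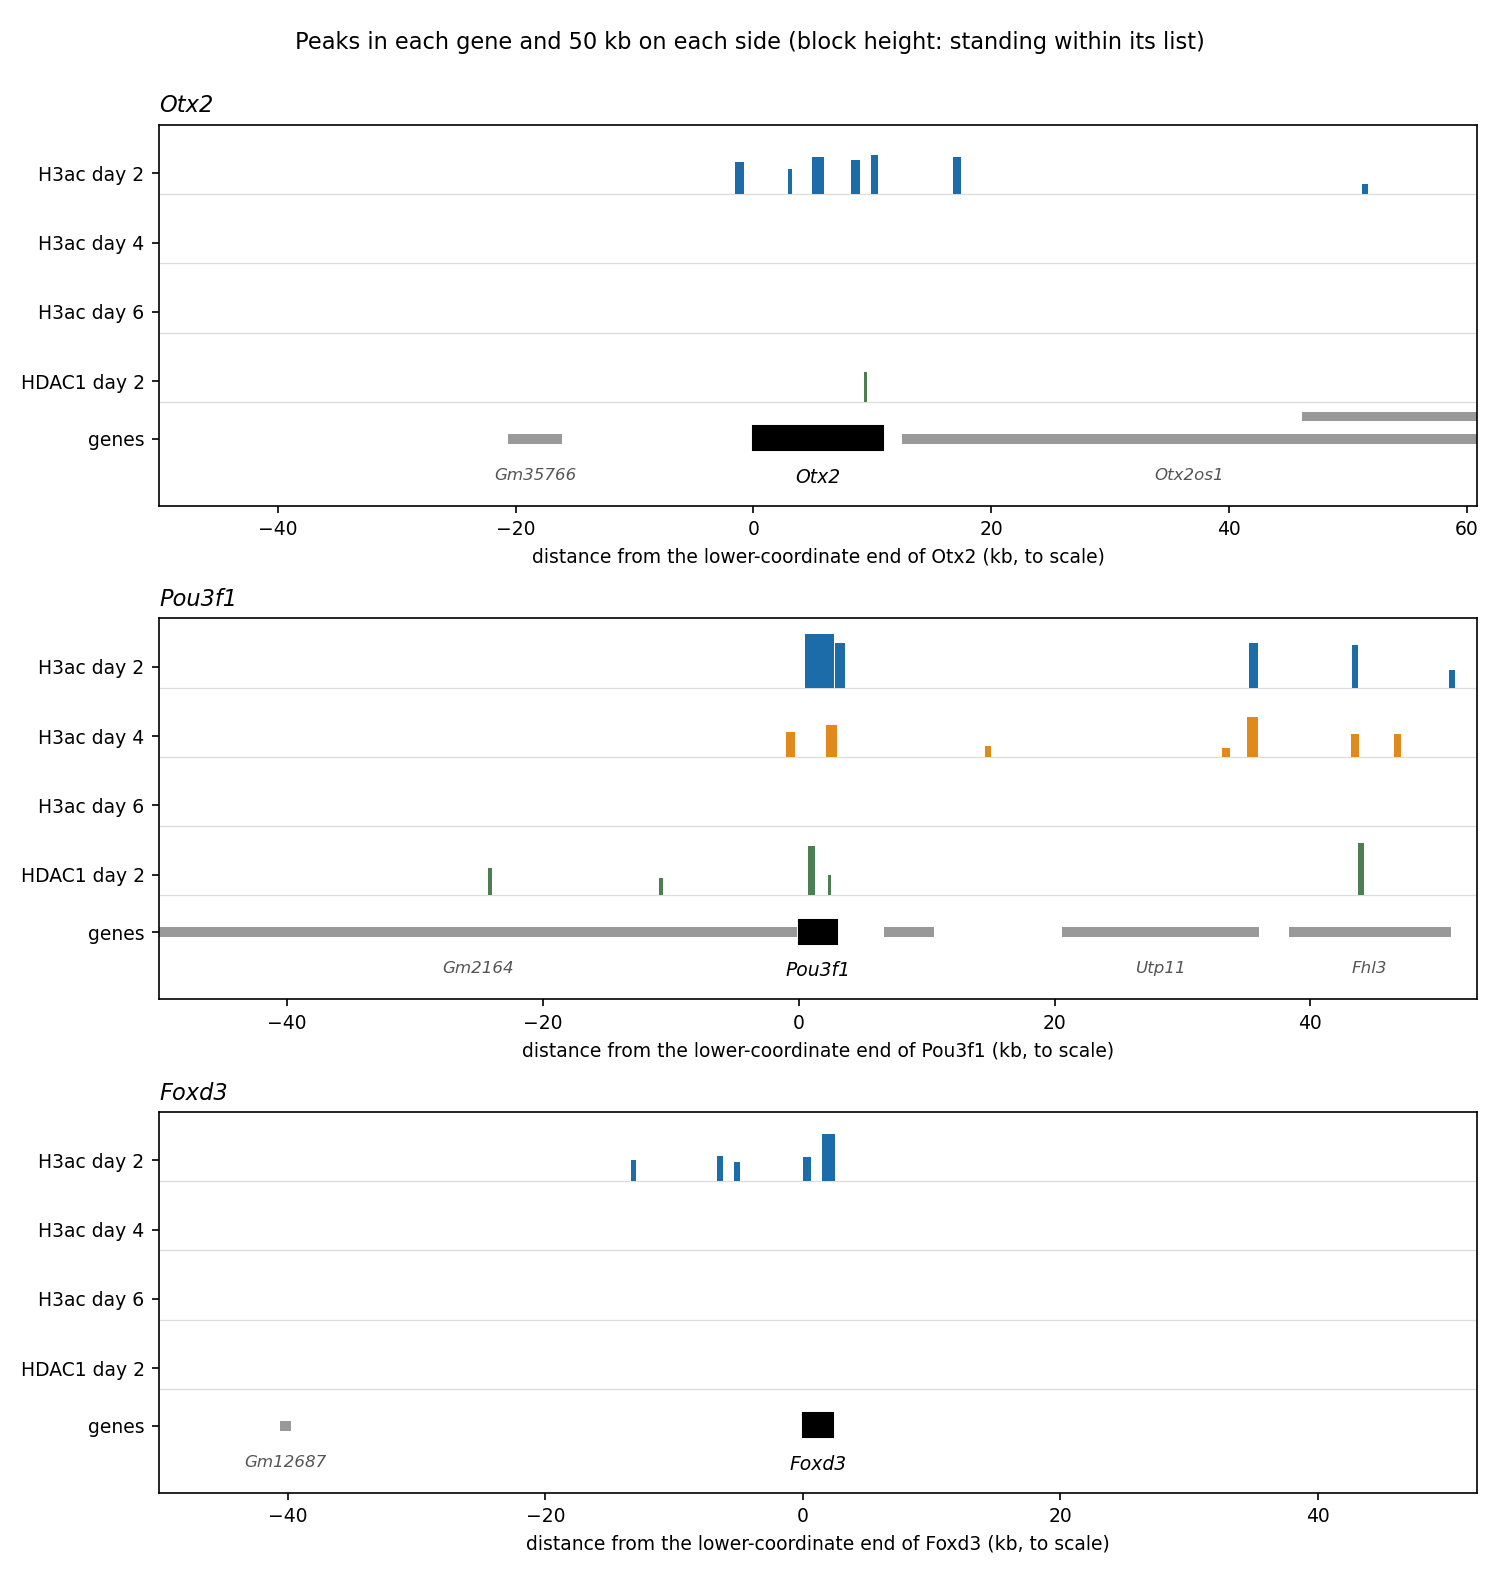
Peaks of the 4 lists in Otx2, Pou3f1 and Foxd3 and 50 kb on each side, by distance in kb from the lower-coordinate end of each gene; block width is the peak width to scale, block height rises with the peak's rank in its own list, black bars are the 3 genes and grey bars other annotated genes. Day 2 H3ac gave 7, 5 and 5 peaks, day 4 gave peaks at Pou3f1 only (7), day 6 gave none, and HDAC1 gave 1, 5 and 0.

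The absence on the later days extended far beyond the gene. The nearest day 4 peak to Otx2 lay 210335 bp away and the nearest day 6 peak 209523 bp away, both in Tmem260. On the other side, the first peak of both later days lay in Exoc5, about 398 kb from Otx2. A stretch of 619 kb around Otx2 was thus without a day 4 peak and one of 618 kb without a day 6 peak. Day 2 also had few peaks in this region apart from those near the gene: outside the 50 kb window, the next were 535 kb away in Peli2 and 398 kb away in Exoc5. A peak in Exoc5 was listed on all 3 days. It ranked 16473 of 17368 on day 2, 4488 of 12945 on day 4 and 1655 of 5553 on day 6. Whether peaks ranked like those at Otx2 would have been called on the later days was not tested.

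Foxd3 likewise had H3ac peaks on day 2 and none on the later days. The gene (gene ID 15221) lies on chromosome 4 from 99656299 to 99658671, on the plus strand. On day 2 it had 5 peaks, 2 at the gene and 3 below it, ahead of its start, and 21.5% of all protein-coding genes had 5 or more. The strongest, at chr4:99657824-99658797, was 974 bp wide with score 186.46 and rank 2908 of 17368, and it lay across the end of the gene, 1524 bp from the start. The peak at chr4:99656291-99656948, 658 bp wide, covered the start site itself at a lower score of 64.24 and rank 11597. Ahead of the gene, the peaks at chr4:99650976-99651399 (59.48), chr4:99649645-99650092 (67.06) and chr4:99642961-99643366 (60.86) lay 4899, 6206 and 12932 bp from it and overlapped no annotated gene. Of the 5, 1 scored at or above the list median, and the same 1 was among the 5286 highest-scoring peaks. The peak over the end of the gene therefore outranked the peak over its start.

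No day 4 or day 6 peak lay within 50 kb of Foxd3. The nearest were 170653 bp away on day 4, in Efcab7, and 169644 bp away on day 6, and the stretches without a peak measured 635 and 633 kb. At its other border lay Atg4c, a gene with a peak on all 3 days (ranks 8118, 6911 and 2731). Just outside the window on day 2, 56506 bp from Foxd3, lay a peak of score 149.26 (rank 4054) in Alg6. No day 4 or day 6 peak overlapped it, so the later absence in this stretch was not limited to Foxd3. No HDAC1 peak was listed within 50 kb of Foxd3, the nearest being 562746 bp away in Ror1.

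Pou3f1 differed from the other members: it had the strongest day 2 peak of the 3 genes, peaks on day 4 and HDAC1 within 1 kb of a gene end. The gene (gene ID 18991) lies on chromosome 4 from 124657646 to 124660655. Its main day 2 peak, at chr4:124658172-124660427, was 2256 bp wide, scored 433.48 and ranked 491, in the top 2.83% of the list. A second peak (151.47) followed after a gap of 21 bp, at chr4:124660449-124661228, and crossed the upper end of the gene. Together they spanned 3057 bp and covered 3036 of them. The other 3 day 2 peaks lay in neighbouring genes. One was near the end of Utp11, at chr4:124692816-124693567 (151.25), and the others were in Fhl3, at chr4:124700869-124701365 (134.18) and chr4:124708482-124708927 (57.87). Utp11 and Fhl3 lie 17576 and 35308 bp from Pou3f1, and the lists do not tell which gene such peaks serve.

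On day 4 the window held 7 peaks, a number that 4.08% of all protein-coding genes reached, yet none was strong. At the gene itself, the day 4 list held, in place of the wide day 2 peak, a peak of 835 bp at chr4:124659768-124660602 (101.32, rank 6497 of 12945) in the upper part of the gene. A second, of 651 bp at chr4:124656684-124657334 (76.18), lay 311 bp below the gene in the noncoding gene Gm2164, and no day 2 peak overlapped it. The strongest of the window was the Utp11 peak at chr4:124692706-124693530 (147.11, rank 4311). Next came the Fhl3 peaks at chr4:124700848-124701454 (69.41) and chr4:124704154-124704698 (68.98). The remaining pair, at chr4:124672193-124672694 (51.92) between genes and chr4:124690698-124691378 (50.60) in Utp11, scored near the list minimum of 50.01. Of the 7, the Utp11 peak alone reached the list median of 101.61 and was among the 5286 highest-scoring, so with lists of equal length Pou3f1 had no day 4 peak at the gene. On day 6 no peak lay within 50 kb, and the nearest, 53449 bp away in Sf3a3, ranked 5513 of 5553 with score 50.70. Sf3a3 also had a day 2 peak (54167 bp from Pou3f1, rank 4508) and a day 4 peak (54007 bp, rank 2196), all just outside the window, and the Fhl3 day 2 peak 47826 bp away was the one closest to the limit on the inside.

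**Figure D2:**
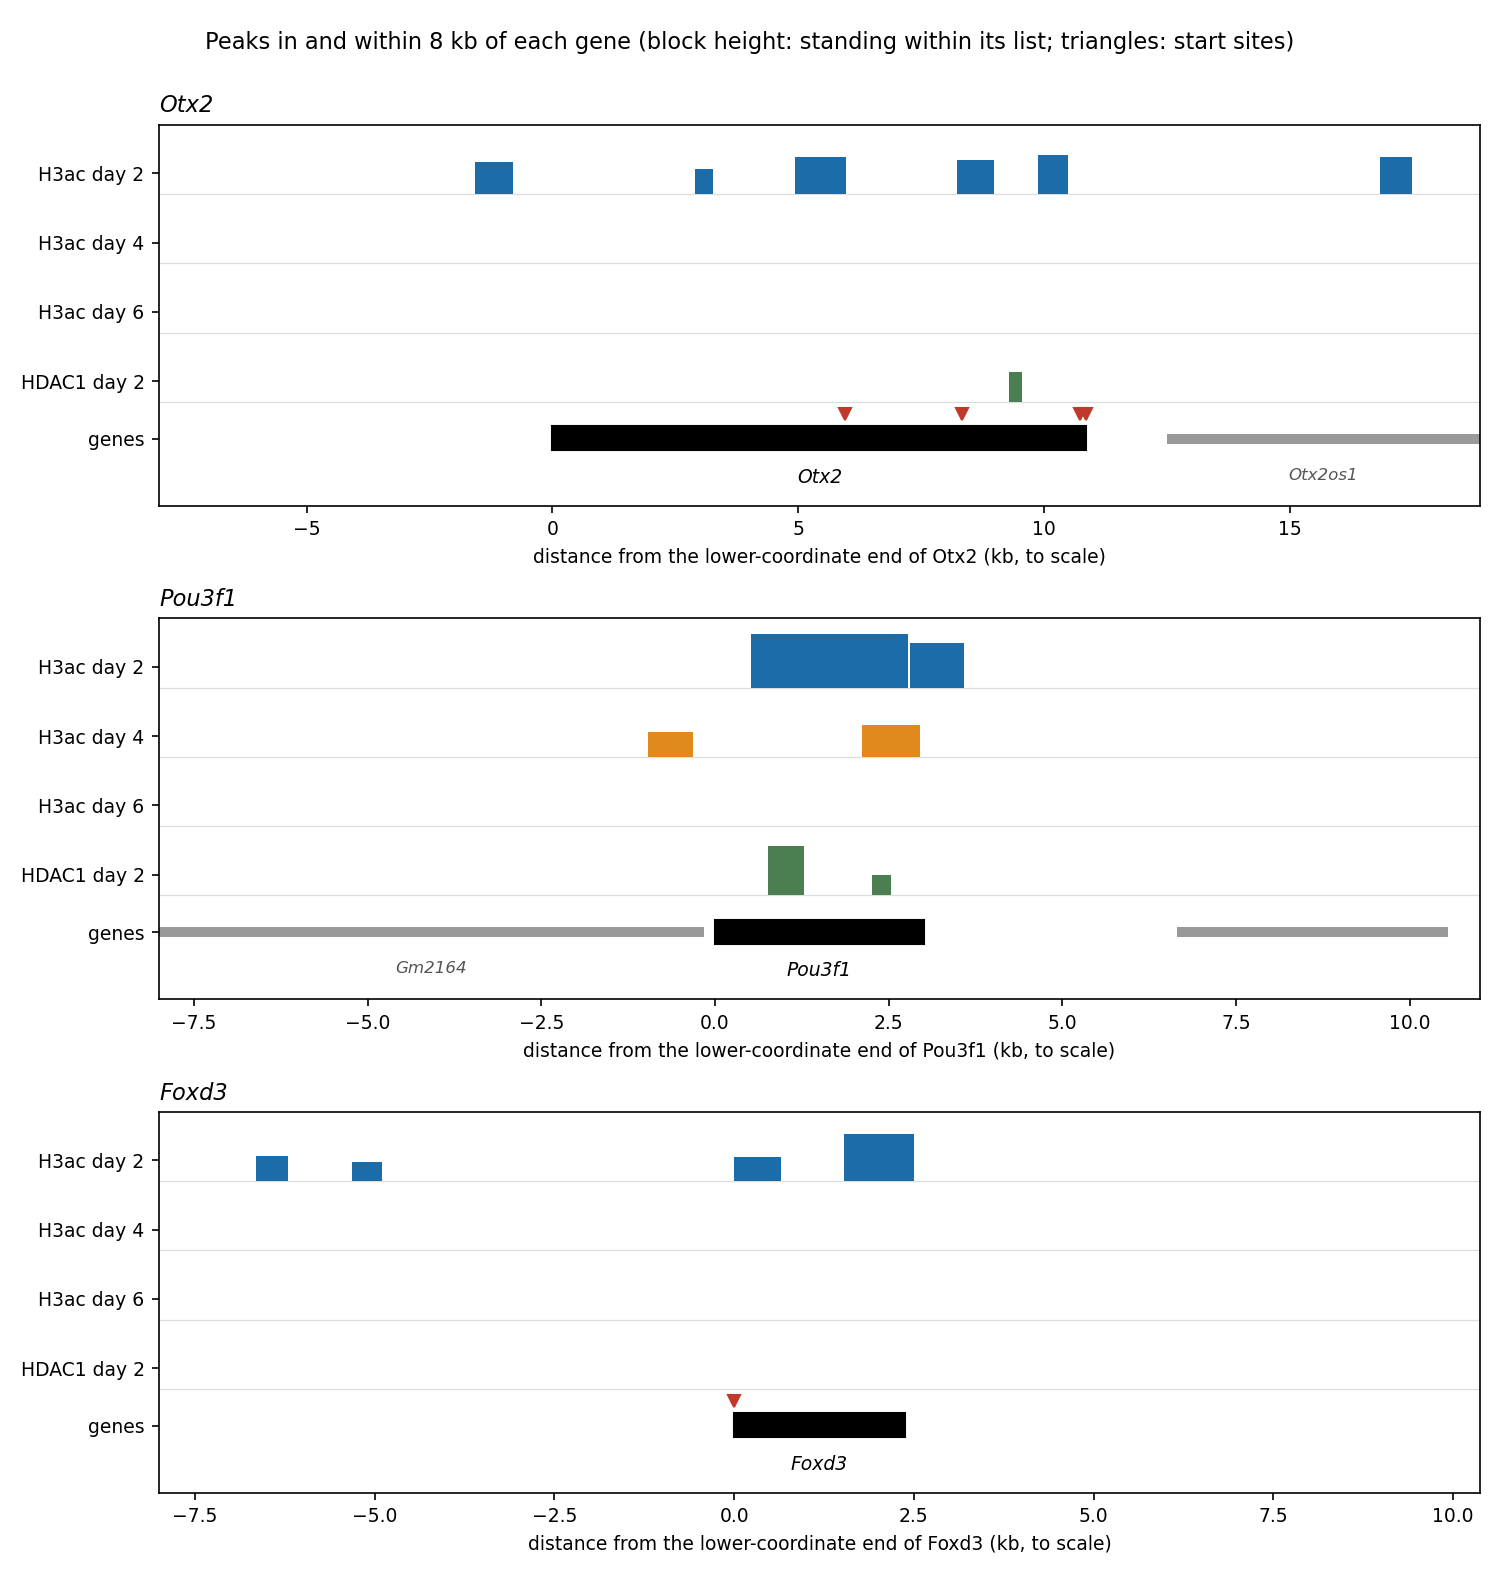
Close view of the peaks in each gene and 8 kb on each side, by distance in kb from the lower-coordinate end of the gene; block width is to scale, block height rises with rank within the list, and red triangles mark the start sites in the RefSeq promoter table. Day 2 H3ac peaks cover 2 of the 4 Otx2 start sites and the Foxd3 start site, and the Otx2 HDAC1 peak stands between H3ac peaks.

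Peaks of one day were compared with those of the next by an overlap of at least 1 bp. Of the 17 day 2 H3ac peaks, 4 were overlapped by a day 4 peak (23.5%, against 50.2% of all day 2 peaks) and 0 by a day 6 peak (35.0% of all). The 4 were the 2 peaks at Pou3f1, which met the same day 4 peak, and those in Utp11 and Fhl3. For Otx2 the count was 0 of 7 and for Foxd3 0 of 5. Higher-scoring day 2 peaks recur more often on later days, so each peak can be read beside those of its own score decile. In the decile that holds the strongest Foxd3 peak, 87.9% of day 2 peaks were overlapped on day 4 and 56.1% on day 6. For the strongest Otx2 peak these shares were 64.2% and 40.9%, and for the main Pou3f1 peak 96.2% and 71.9%. The other 4 Foxd3 peaks lay in deciles of which 24.7% to 28.6% were overlapped on day 4. Of the other 6 Otx2 peaks, those scoring 99.65 and 100.65 lay in the 64.2% decile, and those scoring 82.75 and 88.19 in one of 49.3%. Those scoring 66.53 and 51.9 lay in deciles of 28.6% and 18.8%. The lack of a day 4 peak was thus common in the deciles of these 4 Foxd3 peaks and of the lowest-scoring Otx2 peaks. In the other direction, 3 of the 7 day 4 peaks at Pou3f1 were overlapped by a day 2 peak, where 63.9% of all day 4 peaks were, and 0 of 7 by a day 6 peak, where 44.5% were.

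**Figure D3:**
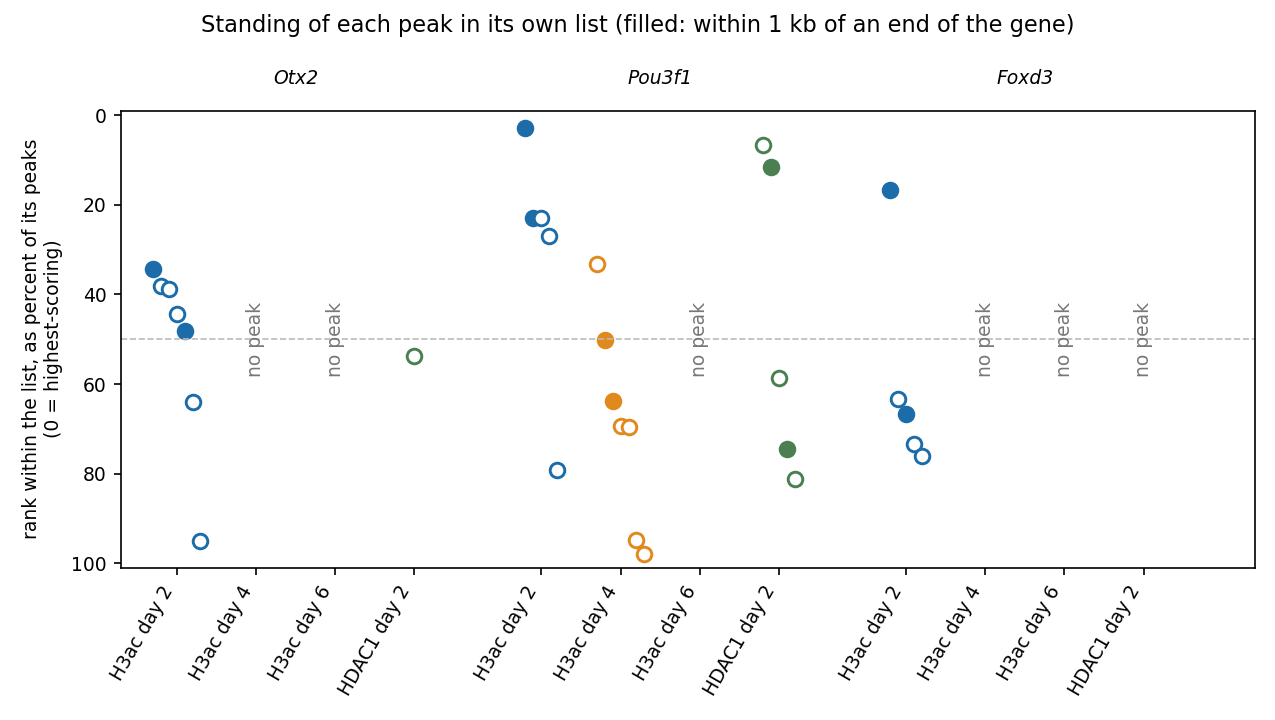
Rank of each of the 30 peaks within its own list, as percent of the list's peaks (0 is the highest-scoring), by gene and list; filled points lie within 1 kb of an end of the named gene, open points do not, and the dashed line is the middle of the list. The main Pou3f1 day 2 peak stands in the top 2.83% and the strongest Foxd3 peak in the top 16.7%, while the Otx2 peaks stand between 34.4% and 95.1%.

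The day 2 HDAC1 list held different numbers of peaks at the 3 genes. An HDAC1 peak in the gene or within 50 kb was found for 39.4% of all protein-coding genes, and 0.434% had 5 or more. Pou3f1 had 5, Otx2 had 1 and Foxd3 had 0. Within 10 kb the counts were closer, at 2, 1 and 0. At Pou3f1, the peak at chr4:124658409-124658920 (512 bp, score 117.19, rank 612 of 5286) lay inside the main H3ac peak of the same day, and a weaker one at chr4:124659905-124660178 (274 bp, 55.31) lay inside it as well. The highest-scoring HDAC1 peak of the window, at chr4:124701384-124701799 (148.05, rank 352), was in Fhl3 and stood 18 bp from the day 2 H3ac peak there; the day 4 H3ac peak overlapped it. A further pair in Gm2164, at chr4:124646701-124647003 (53.46) and chr4:124633328-124633651 (60.97), lay 11168 and 24520 bp from the nearest day 2 H3ac peak.

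The single Otx2 HDAC1 peak, 260 bp at chr14:48666076-48666335, scored 63.56 (rank 2838), below the list median of 65.37. It lay inside the gene between a pair of H3ac peaks, 312 bp from the one and 320 bp from the other, and overlapped neither. It lay 1308 bp from the upper end of Otx2, so Pou3f1 was the only one of the 3 genes with an HDAC1 peak within 1 kb of a gene end, as 9.4% of all protein-coding genes had. Of the 6 HDAC1 peaks, 2 overlapped a day 2 H3ac peak, against 27.7% of the whole HDAC1 list, and 2 overlapped a day 4 one, against 25.7%. Seen from H3ac, 1 of the 17 day 2 peaks overlapped an HDAC1 peak (5.88%, against 8.26% of the list).

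In the Otx2 window, day 2 H3ac peaks covered 4747 bp, in that of Pou3f1 4731 bp and in that of Foxd3 2910 bp, against a median of 1237 bp over all protein-coding genes (percentiles 87.5, 87.4 and 73.1). On day 4 they covered 0, 4646 and 0 bp against a median of 1143 bp, and Pou3f1 stood at percentile 89.5. On day 6 they covered 0 bp in all 3, which was also the median. HDAC1 peaks covered 260, 1829 and 0 bp, and Pou3f1 stood at percentile 99.7. Within 10 kb of Pou3f1 the covered length was 3036 bp on day 2 and 1486 bp on day 4, the rest lying further off, mostly in Utp11 and Fhl3.

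**Figure D4:**
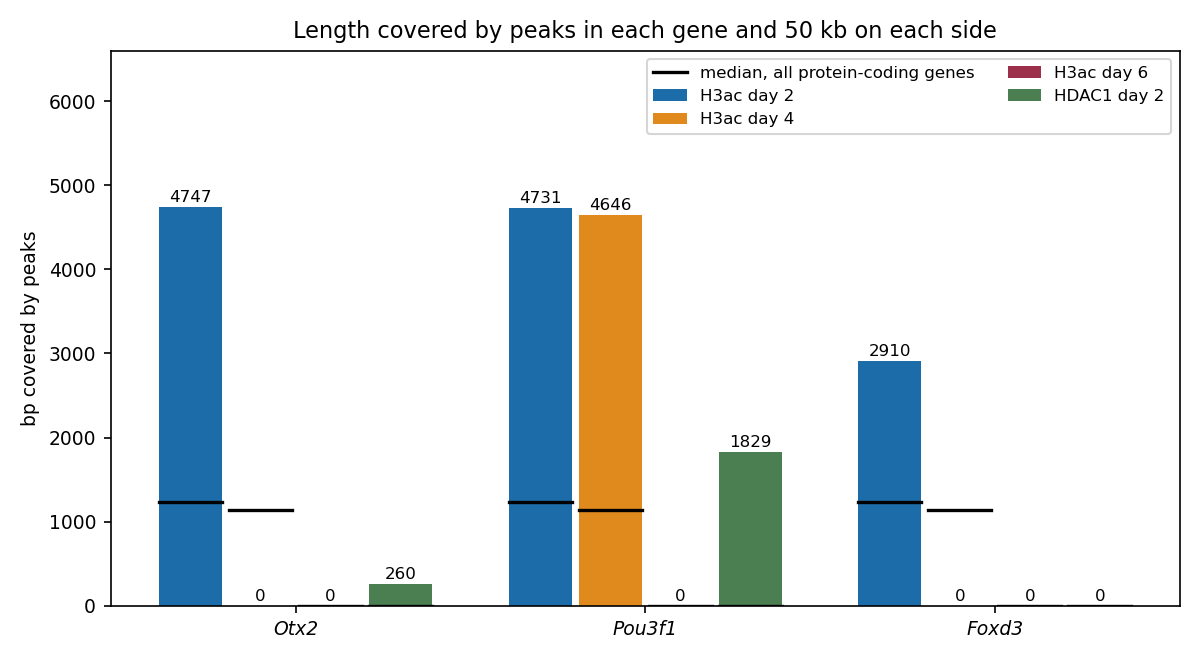
Base pairs covered by the peaks of each list in Otx2, Pou3f1 and Foxd3 and 50 kb on each side (bars from 0, with their values), beside the median of the same window over all protein-coding genes (black lines). Day 2 bars exceed their median of 1237 bp at each gene, and on day 4 only the Pou3f1 bar (4646 bp) is above 0.

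How often a locus with many early peaks was empty later was counted over all genes, a count chosen after the values of the 3 genes had been seen. Among 4698 protein-coding genes with at least 5 day 2 peaks in the gene or within 50 kb, 23 (0.49%) had none on days 4 and 6, and Otx2 and Foxd3 were among them. The 23 genes fell into 19 separate regions, since neighbouring genes share peaks. The windows of Otx2 and Foxd3 held no other protein-coding gene, and the count was not matched for gene density. Nor was it matched for the score of the day 2 peaks, and lower-scoring peaks were less often overlapped on day 4. With at least 7 day 2 peaks, as at Otx2, 5 of 2246 genes (0.223%) had none later. Of the same 4698 genes, 665 (14.2%) had a day 4 peak and none on day 6, as Pou3f1 had. Over all genes, 6.09% had a day 2 peak in the window and none on either later day, and 16.6% had peaks on days 2 and 4 and none on day 6. The choice of the genes was made with their peaks known, so these shares describe how common the pattern was and are no test.

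The 3 genes were next set among 22 genes of the primed epiblast and of the passage into it, all of which were matched. A gene-end H3ac peak, one lying at most 1 kb from either end of the gene, was listed on day 2 for 17 of the 22 (and for 40.6% of all protein-coding genes). The count was 10 on day 4 (38.0% of all genes) and 9 on day 6 (23.3%). Without the 3 members the counts were 14, 9 and 9 of 19. A day 2 gene-end peak with none on day 6 was seen for 9 of the 22, or 6 of 19 without the members, against 20.3% of all genes. Of the 17 with a day 2 gene-end peak, these 9 had none on day 6, where 50.1% of all genes with a day 2 gene-end peak had none, so the list was near the share of all genes in this respect. By day 2 score these were led by Utf1, a chromatin factor of pluripotent cells (607.20), Lef1, a Wnt effector (546.11), Pou3f1 itself, Dnmt3b, which methylates DNA anew (385.85), Foxd3, and Etv5, a factor downstream of FGF signalling (169.84). Otx2 belonged to the same group. Another 6 genes had a gene-end peak on every day, and Cdh2, which encodes N-cadherin, had one on days 4 and 6 without one on day 2.

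Taking the whole window, 5 of the 22 genes, Otx2, Foxd3 and Etv5 among them, had day 2 peaks and none on either later day (3 of 19 without the members, and 6.09% of all genes). An HDAC1 gene-end peak was found for 6 of the 22 (5 of 19 without the members, and 9.4% of all genes). They were Zic2, Zic5, Sox4, Utf1, Dnmt3b and Pou3f1. All 6 carried H3ac at an end on day 2, as did 17 of the 22 genes. The same share among all genes with an HDAC1 gene-end peak is not given here. Of these 6 genes, Pou3f1 had the highest-ranked HDAC1 peak (612), followed by Dnmt3b (1537) and Zic5 (2317). The peaks of Utf1 (3516), Sox4 (4004) and Zic2 (4453) ranked lower. Zic2 and Zic5, factors of the zinc finger family, are neighbours and share part of their window.

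**Figure D5:**
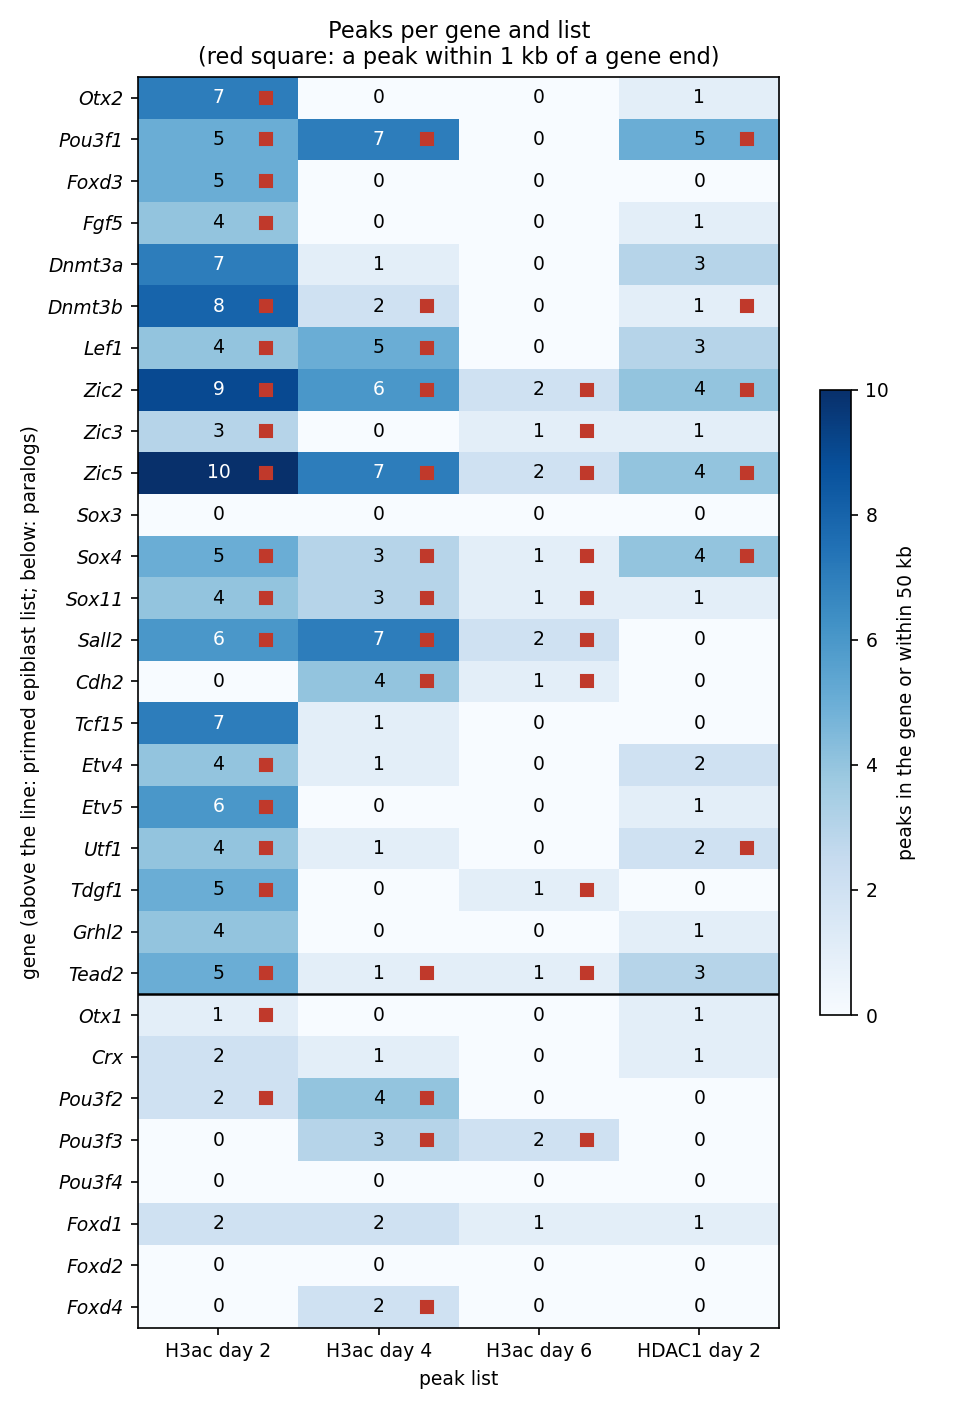
Number of peaks in each gene or within 50 kb (numbers and shade) for the 22 primed epiblast genes and 8 paralogs in the 4 lists, with a red square where a peak lies within 1 kb of a gene end. Otx2 and Foxd3 have 7 and 5 day 2 H3ac peaks and 0 on both later days, and Pou3f1 has 5, 7 and 0.

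Among 8 paralogs, 2 had a day 2 gene-end peak (40.6% of all genes), 3 a day 4 one (38.0%), 1 a day 6 one (23.3%) and 0 an HDAC1 one (9.4%), numbers too small to set the paralogs apart from other genes. Otx1, which shares the homeodomain of Otx2, had 1 day 2 peak in its window, at a gene end with score 62.11, and none later. Pou3f2, a neural relative of Pou3f1, had a gene-end peak on day 2 (60.79, rank 12775 of 17368) and on day 4 (208.57, rank 2536 of 12945) and none on day 6. Pou3f3, another neural relative, had none on day 2 and gene-end peaks on day 4 (106.79) and day 6 (129.99). Pou3f4 had no peak in its window in any list. Within the Pou3f family the genes thus differed in the day on which peaks were listed, with 1 library for each day and mostly middle or low ranks outside Pou3f1. Foxd1, Foxd2 and Foxd4 had no gene-end peak on day 2, and Foxd4 had one on day 4 that scored 51.23.

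Likeness to each member was measured over the 4 lists as the Euclidean distance between percentiles of covered length, among genes more than 100 kb from it. Nearest to Otx2 were Pipox (distance 2.72), Etv5 (3.75) and B4galnt3 (5.13), each with day 2 H3ac peaks (8, 6 and 5), none on days 4 and 6, and 1 HDAC1 peak. Nearest to Pou3f1 were Cadm4 and Zfp428, neighbours with the same peaks (both 0.999), and Tmem235 (1.83), all 3 with H3ac peaks on days 2 and 4, none on day 6, and 3 to 5 HDAC1 peaks. Nearest to Foxd3 were Dpf1 and Ppp1r14a, again neighbours with the same peaks (both 0.343), and Fndc8 (0.905), with 4 day 2 H3ac peaks and none in the other lists. The measure rests on 4 values per gene and describes likeness of peaks only.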

How the data were processed

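The study comprised 4 ChIP libraries and 4 input libraries, grouped by the labels. Reads were aligned with Bowtie 0.12.8 to mm10, per the submitters' processing notes. The authors deposited 1 peak list per ChIP library, with a score for each peak. Peak names begin with MACS; for the caller's version, cut-off and use of inputs the entry is: not given in the sources used here. Called peaks depend on depth and settings, so a gene without a listed peak can still be acetylated or bound, and scores or ranks of different lists show no change.

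Genes were those of a RefSeq table (GRCm38.p6) on chromosomes 1 to 19, X and Y, without strand or exons, and start sites came from its promoter table. Exons, introns and UTRs were not told apart. Peaks were counted in a gene or within 50 kb, and at gene ends within 1 kb. Coordinates are 1-based. Python 3.11.15 with pandas 2.3.3 was used. The counting steps were tested on simulated data. The members, the gene lists and the rule for named genes were chosen with earlier results of these data known. The rule took the 3 members, their neighbours, up to 6 listed genes per class by day 2 score, and 3 like genes per member. Pou3f4, Foxd1, Foxd2, Foxd4 and genes at the borders of the empty stretches were named after their values were seen. Alternatives varied the window, the gene-end distance, the score threshold and the overlap.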

Additional observations from a re-analysis of the deposited data

How the results depend on the processing

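Of 100 values recomputed, 82 stayed within 1.5 times the reported one. These 82 included values that could not have changed. Such were counts of 0 under narrower or stricter settings, and HDAC1 counts with 5286 peaks, its whole list. Narrower windows and stricter score thresholds can only remove peaks, so a window count of 0 could change only with 100 kb on each side. There the counts for Otx2 and Foxd3 on days 4 and 6 stayed 0, and 1 peak entered for Pou3f1 on day 6. With 100 kb, Pou3f1 had 8 day 2 peaks in place of 5. With 10 kb it had 2 peaks each on day 2, on day 4 and for HDAC1, in place of 5, 7 and 5. With peaks at or above their list's median score, Pou3f1 had 1 on day 4 and 2 of HDAC1, Foxd3 had 1 on day 2 and Otx2 had 0 of HDAC1. With equal numbers of top-scoring peaks (5286), Otx2 had 0 day 2 peaks and hence 0 at its ends, Foxd3 had 1, and Pou3f1 had 1 on day 4 and 0 at its ends there. The fall at Otx2 from day 2 to later days was thus not seen with lists of equal length. With gene ends of 2.5 kb, the Otx2 HDAC1 peak was counted (1), and 10 of the 22 primed epiblast genes had an HDAC1 peak in place of 6. A wider distance can only raise such counts, and the share of all genes at 2.5 kb is not given here. With HDAC1 peaks extended by 500 bp, 4 of 6 met a day 2 H3ac peak in place of 2. The count of genes with early peaks only, 23 of 4698 (0.49%), was 13 of 693 (1.88%) with 10 kb, where Otx2 was included and Foxd3 was not. With 100 kb it was 20 of 8099 (0.247%), and both were included. The share thus depended on the window. These 2 settings were chosen after seeing the data. No paired analysis was possible because each group had 1 sample. The read depth is unknown, so a peak below the caller's limit cannot be told from no peak.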
